A study of Mus musculus with 9 samples.

Results

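The list described here holds the regions bound in untreated PB3-Parental cells by an antibody against ZEB1, called over an IgG control. Every region of the authors' deposited list for the untreated cells was taken, 18749 in all. They covered 7037 kb. The regions were set beside a count table of 23623 rows over the whole series, of which 18593 rows overlapped the list and 5030 did not. Of the regions, 18744 lay on placed chromosomes and 5 on unplaced contigs, and 4 had no row in the count table.

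PB3 is a mouse breast cancer line, labelled Er-/Pr-/Her2-. CUT&RUN cuts and releases chromatin beside a bound antibody, so that sequenced fragments mark where the antibody's target sat. Used here were 2 ZEB1 libraries of untreated PB3-Parental cells and 1 IgG library of the same line, also labelled untreated. ZEB1 libraries of eribulin-treated cells also belong to the series and were not compared here. The labels do not say whether the 2 untreated libraries came from separate cultures.

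ZEB1 is a zinc-finger and homeodomain transcription factor that drives epithelial-mesenchymal transition (EMT), the switch by which epithelial cells loosen their contacts and become motile. It binds E-box motifs, recruits corepressors such as CtBP to silence epithelial genes including E-cadherin (Cdh1), and can also act with YAP and AP-1 factors at active genes. ZEB1 and the miR-200 microRNAs repress each other, a loop known from breast and other carcinomas.

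Sequences of 6 promoters that held an untreated region are printed here because they show the E-box letters in and around the regions. Krt8, F11r, Pard6b and Snai1 hold the letters CAGGTG or CAGGTA, read on either strand (CACCTG is the reverse complement of the first, and TACCTG that of the second), and Vim and Srgap2 hold none of them. Each run is the 250 bases before the start site, 5′ to 3′, from RefSeq on GRCm38.p6, with those letters in capitals.
Krt8: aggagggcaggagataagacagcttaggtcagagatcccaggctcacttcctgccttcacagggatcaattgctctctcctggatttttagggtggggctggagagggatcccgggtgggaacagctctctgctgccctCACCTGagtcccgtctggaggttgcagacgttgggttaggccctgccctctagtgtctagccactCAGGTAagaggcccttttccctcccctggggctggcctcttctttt
F11r: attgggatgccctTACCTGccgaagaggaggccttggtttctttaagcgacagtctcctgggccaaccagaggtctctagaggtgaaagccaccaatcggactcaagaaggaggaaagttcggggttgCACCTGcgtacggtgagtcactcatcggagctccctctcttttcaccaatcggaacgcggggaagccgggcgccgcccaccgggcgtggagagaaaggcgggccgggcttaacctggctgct
Pard6b: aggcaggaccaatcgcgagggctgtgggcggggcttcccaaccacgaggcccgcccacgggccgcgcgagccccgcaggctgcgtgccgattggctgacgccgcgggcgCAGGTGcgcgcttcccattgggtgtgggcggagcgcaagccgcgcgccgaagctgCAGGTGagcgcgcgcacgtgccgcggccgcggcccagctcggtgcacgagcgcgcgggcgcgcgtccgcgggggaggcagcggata
Snai1: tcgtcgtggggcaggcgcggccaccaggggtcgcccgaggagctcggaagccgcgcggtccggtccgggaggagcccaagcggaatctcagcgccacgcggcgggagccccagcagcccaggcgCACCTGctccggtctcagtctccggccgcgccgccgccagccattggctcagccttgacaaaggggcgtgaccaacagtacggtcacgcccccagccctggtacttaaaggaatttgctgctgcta
Vim: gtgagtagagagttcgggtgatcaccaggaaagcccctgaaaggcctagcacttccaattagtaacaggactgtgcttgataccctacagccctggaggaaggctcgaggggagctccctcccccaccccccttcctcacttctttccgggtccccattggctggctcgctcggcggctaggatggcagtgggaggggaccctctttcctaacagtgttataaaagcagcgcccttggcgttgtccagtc
Srgap2: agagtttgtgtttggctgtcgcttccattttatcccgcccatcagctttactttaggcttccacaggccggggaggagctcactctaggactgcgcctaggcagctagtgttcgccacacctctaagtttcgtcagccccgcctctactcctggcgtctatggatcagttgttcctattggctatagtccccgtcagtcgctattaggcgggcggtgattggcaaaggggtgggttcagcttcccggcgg

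The Krt8 stretch (chr15:102004343-102004592, minus strand) lay wholly within a region of 12.5-fold over IgG, with CACCTG at -111 to -106 and CAGGTA at -46 to -41 from the start site. The F11r stretch (chr1:171437311-171437560, plus strand) lay within a region of 7.45-fold, with CACCTG at -122 to -117 and TACCTG at -237 to -232. The Pard6b stretch (chr2:168080754-168081003, plus strand) held CAGGTG at -141 to -136 and at -86 to -81, within a region of 19.8-fold. In Snai1 (chr2:167537945-167538194, plus strand), 144 of the 250 bases lay in a region of 5.19-fold, with CACCTG at -126 to -121. The stretches of Vim (chr2:13574061-13574310, plus strand) and Srgap2 (chr1:131527362-131527611, minus strand) lay within regions of 11.6-fold and 47.7-fold. A match is a description of letters, not a shown binding site, and a window without one says nothing about ZEB1.

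The regions were moderate in size and strength. The fold over IgG is the peak caller's own value for the replicate 1 peak behind each region. Its median was 7.14, with the middle of the list between 5.35 and 9.66 and the extremes at 3.16 and 47.7. Width had a median of 318 bp, with the middle of the list between 218 and 468 bp and a largest width of 3199 bp. A −log10 q of at least 5 was reached by 14251 regions (76.0%). The regions are trimmed pieces of 18648 peaks of replicate 1, since 101 peaks were cut into several regions and 8 regions were 1 bp long. A width is therefore the width of an overlap, whereas a fold belongs to the uncut peak. In 1295 regions the peak's summit lay beyond the region's own end. The sources used here do not state what the peaks were overlapped with.

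Counts at the regions rested on 372896 reads in untreated replicate 1 and 672582 in replicate 2, summed over the count table. The rows that overlapped the list held 93.7% of the reads in replicate 1 and 92.0% in replicate 2. The median listed row had 14 reads in replicate 1 and 25 in replicate 2, which was 37.5 and 37.2 in counts scaled by the library total (CPM). Rows outside the list had a median of 4 reads in replicate 1 and 9 in replicate 2, or 10.7 and 13.4 CPM. The list was called from replicate 1 and then trimmed by an overlap that may have used replicate 2, so counts of both libraries may be part of the choice and the gap is a description.

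At the listed rows the 2 untreated libraries differed by no more than counting error, whereas outside the list their spread was wider. Among 18201 listed rows in which both libraries together had 10 reads or more, chi-square divided by its degrees of freedom came to 0.871, against 1.24 over 3543 rows outside the list. An exact binomial test with Benjamini-Hochberg adjustment called 0 of these rows (0.0%) different between the replicates, with 523 at an unadjusted p below 0.05 and a smallest adjusted p of 0.582. The listed rows come from replicate 1 peaks cut by an overlap that may have used replicate 2. The test therefore cannot tell agreement of the libraries from the choice of rows. The 2 libraries were counted as 1 sample, and each library's value is given below without an SD.

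The list was not carried by a few regions. The 10 highest rows held 0.773% of the listed reads in replicate 1 and 0.73% in replicate 2. The 1000 highest held 18.6% in replicate 1 and 19.3% in replicate 2.

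Gene boundaries held far more regions than their length would give. At the boundaries of protein-coding genes, meaning within 1 kb of either end, lay 5106 regions, 27.2% of the list (95% Wilson interval 26.6 to 27.9). Such windows made up 3.01% of the chromosomes' length, a ratio of 9.04. Length was taken from the start of a chromosome's first coding gene to the end of its last. Inside genes lay 6765 regions (36.1%, against 37.9% of length). Outside genes lay 6873 regions (36.7%, against 59.0% of length). The rows outside the list were divided into 32.5%, 36.2% and 31.3% for the same 3 classes. These intervals cover counting error only, and since regions are not replicates the difference between the list and the other rows was not tested.

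**Figure D1:**
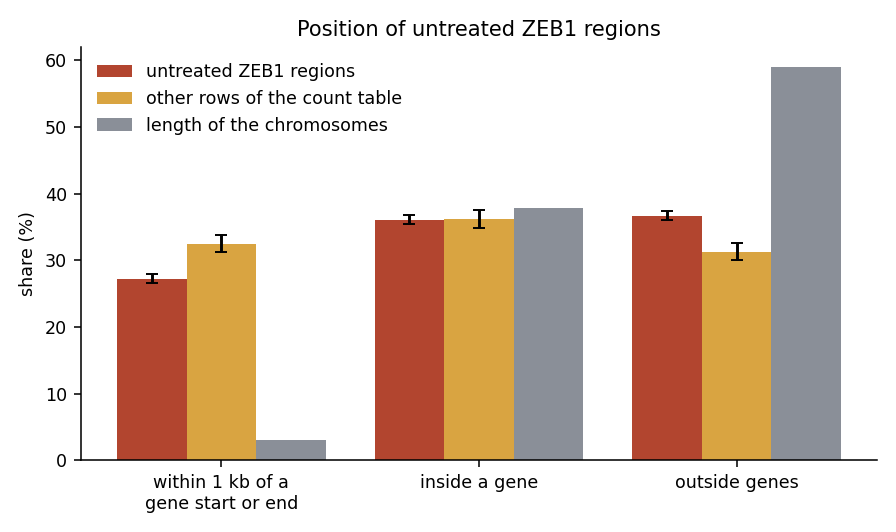
Share of untreated ZEB1 regions, of the other rows of the count table and of chromosome length (y axis, %) within 1 kb of a protein-coding gene's start or end, inside a gene and outside genes; error bars are 95% Wilson intervals. Untreated regions reach 27.2% at gene boundaries, where 3.01% of the length lies.

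Nearly all boundary regions sat at the 5′ end. Of 4223 boundary regions whose nearest gene had a strand in the annotation, 4015 (95.1%) were nearer the start and 208 (4.93%) nearer the end. At 1017 boundary regions (19.9%) the 1 kb windows of at least 2 coding genes met. Over 18162 regions on chromosomes with start sites in the promoter table, 4251 (23.4%) were centred within 0.5 kb of a start site and 4596 (25.3%) within 1 kb. The 200 bp just upstream of start sites held 2137 region centres and the 200 bp just downstream 1216. The median position of those within 1 kb was 58 bp upstream (-58 bp). The rest of the list was spread widely, and the median distance from a start site over all these regions was 23292 bp.

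**Figure D2:**
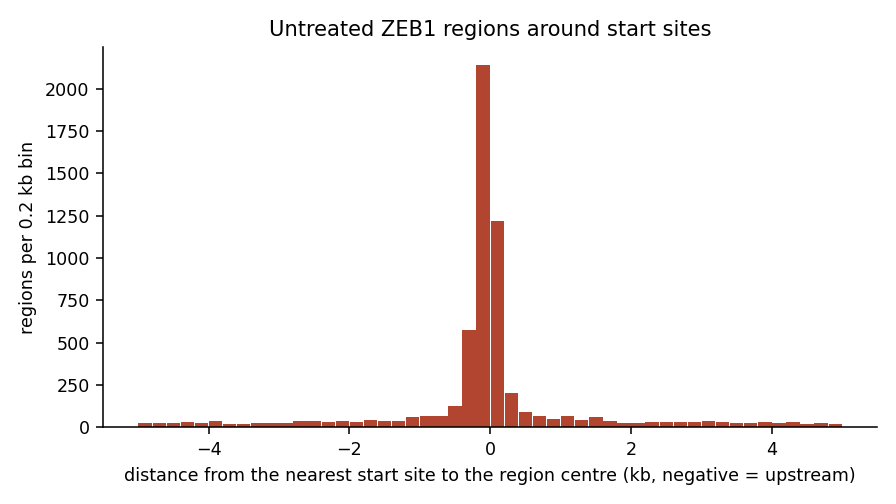
Number of untreated ZEB1 regions (y axis) by the distance of the region's centre from the nearest start site (x axis, kb, bins of 0.2 kb, negative is upstream). The highest bin, with 2137 regions, ends at the start site and the next, with 1216, begins there.

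The classes were alike in median fold, whereas median read density was lowest at boundaries. The median fold over IgG was 7.14 for boundary regions, 6.92 for regions inside genes and 7.14 for regions outside genes. Their median widths were 335, 309 and 311 bp, and their median read densities 87.5, 102 and 108 CPM per kb. A fold of at least 20 was reached by 121 boundary regions (2.37%), 90 regions inside genes (1.33%) and 109 outside genes (1.59%). Among the 100 regions of highest fold, 47 lay at a boundary, 16 inside a gene and 37 outside genes, against 27.2%, 36.1% and 36.7% of the whole list.

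Chromosome X stood apart from the autosomes. It held 239 regions, 1.4 per Mb, whereas the autosomes together held 18505, 7.62 per Mb, a ratio of 0.184. Relative to gene number the gap was smaller, with 24.7 regions per 100 protein-coding genes on X against 89.5 on the autosomes. A boundary region was found at 9.21% of genes on X and at 27.1% of autosomal genes, and the median fold was 5.97 on X and 7.14 on the autosomes. The autosomes ranged from 5.75 per Mb on chromosome 14 to 11.3 on chromosome 11 and 11.9 on chromosome 19.

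**Figure D3:**
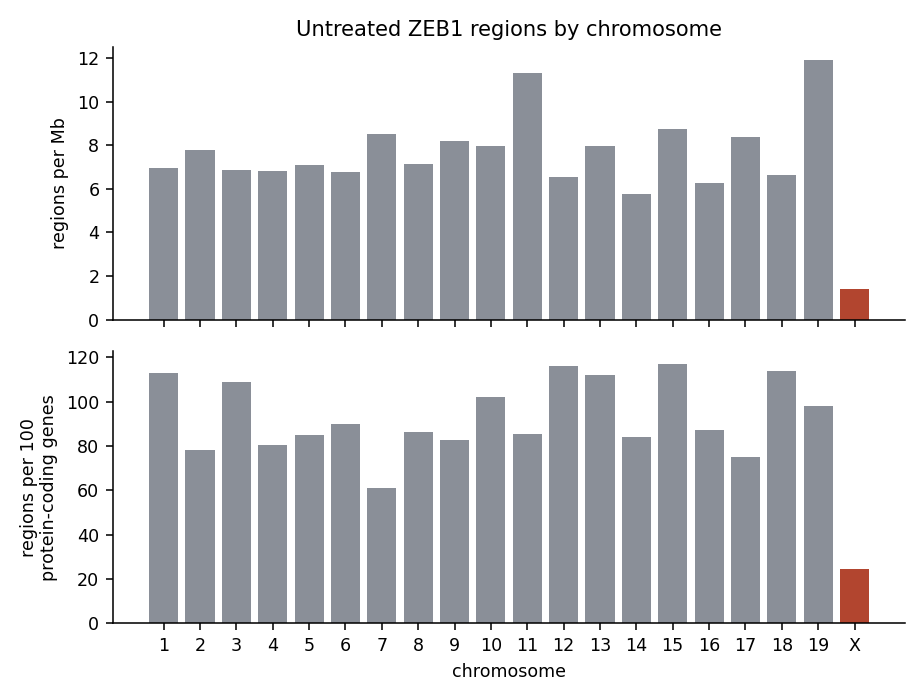
Untreated ZEB1 regions per Mb (upper panel) and per 100 protein-coding genes (lower panel) for each chromosome, with X in red. X has 1.4 regions per Mb and 24.7 per 100 genes, below every autosome on both scales.

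The strongest regions by fold over IgG were a mix of promoters and distant sites. The highest (chr1:131526933-131528168, 47.7-fold, 138 and 230 reads in replicates 1 and 2) covered the shared start of Srgap2, a GTPase-activating protein of the Slit-Robo pathway, and Fam72a. The next (chr17:70963658-70963890, 47.6-fold, 125 and 171 reads) was 233 bp wide, inside the long noncoding RNA gene Gm46595 and 10189 bp from Myl12b, a myosin regulatory light chain. A site inside Jarid2, a component of Polycomb repressive complex PRC2, reached 42.0-fold with 281 and 469 reads (chr13:44869572-44870018). A boundary region of Spag7 had 40.9-fold with 144 and 272 reads.

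The others among the 10 strongest lay inside a gene or at distances of 2131 to 206712 bp from one. The fourth in rank had 41.3-fold and 189 and 375 reads, and its nearest gene boundary was that of Actl7b, 206712 bp away. A region near Smndc1, a splicing factor gene, reached 36.7-fold at 30525 bp. One inside Tns4, which encodes the focal adhesion protein tensin 4, had 37.5-fold with 131 and 232 reads. Regions near Rimbp3 (37.7-fold), Lgals3, which encodes galectin-3 (36.6-fold), and Asb7 (35.1-fold) completed the 10.

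Ranked by reads, a different set led. The most reads fell on an unplaced contig (575 in replicate 1 and 913 in replicate 2), followed by a region 671 bp from a boundary of Lars2, the mitochondrial leucyl-tRNA synthetase (505 and 714 reads, chr9:123461803-123462206). The Lars2 region also had the highest −log10 q of the list, 396. Jarid2 came next, and regions near Alyref2, Lactb, Actl7b, Gphn, Mreg, Eef1g and Smndc1 followed with 158 to 220 reads in replicate 1 and 290 to 405 in replicate 2. Of the 100 regions with most reads, 37 were among the 100 of highest fold. Whether the leading sites lie in repeated sequence was not tested. How the authors placed reads that match several places is not stated in the sources at hand.

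Read density singled out short and crowded sites. Without a limit on width, 8 of the 10 densest rows were 1 or 2 bp long with 1 to 5 reads per library, at Vars, Rnf135, Lpin1, Gnb2, Ceacam9, Sertad1, Zfp62 and Ccdc186, and their density has no meaning as a level. Among rows of at least 100 bp, the Lars2 region had 2865 CPM per kb, followed by a region inside Gphn, the gephyrin gene (1801 CPM per kb, 273 bp), and a region near Tra2a, a splicing regulator gene (1654 CPM per kb, 166 bp). The sites inside Jarid2 (1605) and near Rimbp3 (1446) and Myl12b (1215) were next. Then came the contig region (813) and a site 193157 bp from Obi1 (770), inside the long noncoding RNA gene D130009I18Rik. A site 696696 bp from Neto1 (732) and the site 206712 bp from Actl7b (498) closed the 10. The median listed row had 101 CPM per kb.

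The widest regions were of another kind. They lay inside Ide, the insulin-degrading enzyme gene (3199 bp, 18.5-fold), inside Cic, the repressor Capicua (2641 bp, 22.2-fold), and inside Cacng4 (2633 bp, 26.8-fold). Others lay near Lactb (2493 bp) and Alyref2 (2431 bp), at the histone genes H3c15 (2364 bp) and H2ac7 (2046 bp), at Thbs1, the thrombospondin-1 gene (2221 bp), near Sec14l1 (2208 bp) and inside Slc6a17 (2099 bp). Width did not bring a high fold in each case, since the H3c15 region had 5.76-fold with 82 and 172 reads. Only 10 of the 100 widest regions were among the 100 of highest fold, and 1 was among the 100 densest rows of at least 100 bp.

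Across the list, wider regions were stronger. Over 4 width groups of near-equal size, from narrowest to widest, the median fold was 5.36, 6.25, 7.78 and 10.2, and the Spearman correlation of width with fold was 0.579 over 18745 regions, a description of regions that share libraries and caller. Read density changed little over the same groups, at 94.9, 96.0, 102 and 112 CPM per kb.

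Regions beside small nuclear RNA genes were wide and strong. A region lay within 1 kb of 58 of 1004 such genes (5.78%), with a median fold of 11.6, a median width of 893 bp and medians of 129 and 143 CPM in replicates 1 and 2, against 7.14-fold, 318 bp and 37.5 and 37.2 CPM over the list. The 59 regions concerned made up 0.315% of the list, 11 of the widest 100 regions and 7 of the 100 with most reads. Transfer RNA genes had a region at 88 of 408 (21.6%), with a median fold of 6.25. Long noncoding RNA genes had one at 1235 of 12727 (9.7%), microRNA genes at 68 of 1228 (5.54%), small nucleolar RNA genes at 33 of 1340 (2.46%), pseudogenes at 109 of 9944 (1.1%) and ribosomal RNA genes at 0 of 63. Among protein-coding genes the share was 26.0%. Of the regions at long noncoding RNA genes, 47.3% were also at a coding gene boundary. That overlap was 66.7% at small nucleolar RNA and 64.8% at microRNA genes. It was 31.3% at transfer RNA genes, 25.2% at pseudogenes and 23.7% at small nuclear RNA genes. Some of these RNA genes have near-identical copies, and how the authors placed reads shared by copies is not stated in the sources at hand.

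Over 21887 protein-coding genes, 26.0% (5694 genes) had a region within 1 kb of their start or end. A region in the gene body or within 1 kb of it was found at 36.8% of genes. When each region was given to its nearest coding or microRNA gene within 50 kb, 14402 regions (76.8%) were assigned, and 8105 coding genes (37.0%) received at least 1.

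Most genes with a region had only 1, and a minority held many. One region was assigned to 5118 coding genes and at least 3 to 1394 genes (6.37%), which together held 40.7% of the regions assigned to coding genes. At least 10 were assigned to 16 genes. Genes with many regions were long, with a median length of 49.0 kb at 3 or more regions, 22.3 kb at 1 and 12.3 kb at 0.

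Among the genes with most assigned regions, Iqgap1, a scaffold protein that binds actin, had 17 regions of 4.47-fold to 16.1-fold. Ahnak, a giant membrane-associated scaffold protein, had 15 and tropomyosin (Tpm1) 13. Abhd2, the TGF-beta effector Smad3 and Frmd8 had 12 each. The hyaluronan receptor Cd44, the deubiquitinase gene Otud7b and the non-muscle myosin heavy chain Myh9 had 11 each. Counted over the gene body and 1 kb around it, the order favoured very long genes, led by Dlgap1 with 18 over 852 kb and Aopep with 17 over 361 kb, whereas Smad3 and Ahnak had 14 each over 111 and 87.7 kb.

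Regions also crowded together. With gaps of at most 10 kb, 8402 regions (44.8%) lay in clusters of at least 2, and 170 clusters held 5 or more. The largest, 14 regions over 55.0 kb, lay in the histone gene cluster of chromosome 13. Other large clusters were 13 regions at Socs3 and Pgs1, 11 inside Dlgap1 and 11 at Fosb and Ercc1.

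Gene families differed widely in how many members had a boundary region, read against the 26.0% of all coding genes. Histone genes had one at 67 of 103 members (65.0%), Klf factors at 11 of 17 (64.7%), tubulins at 9 of 17 (52.9%) and cytosolic ribosomal proteins at 44 of 84 (52.4%). MAP kinase family genes (22 of 43, 51.2%), Rab GTPases (26 of 59, 44.1%), complex I subunits and assembly factors (21 of 49, 42.9%), mitochondrial ribosomal proteins (33 of 78, 42.3%) and proteasome subunits (16 of 40, 40.0%) were also above it. Zfp zinc-finger genes (30.2%), myosin and septin genes (27.0%) and integrins (25.8%) lay near the background, which is no result about them.

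Other families had few. Olfactory receptors had a boundary region at 3 of 1110 genes (0.27%), vomeronasal receptors at 4 of 355 (1.13%), protocadherins at 1 of 69 (1.45%), cytochrome P450 genes at 5 of 99 (5.05%), serpins at 4 of 63 (6.35%), Hox genes at 3 of 39 (7.69%), cadherins at 2 of 23 (8.7%), keratins at 5 of 53 (9.43%) and collagens at 5 of 44 (11.4%). Defensins had 0 of 71. For cadherins the Wilson interval, 2.42 to 26.8, covered the 26.0% of all coding genes, so their share is no result about them. Counted over the body and 1 kb around it, collagen genes, with a median length of 114 kb, had a region at 20 of 44 (45.5%, 95% Wilson interval 31.7 to 59.9), near the 36.8% of all genes. Col18a1, a basement membrane collagen, had 10 regions of up to 23.2-fold.

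**Figure D4:**
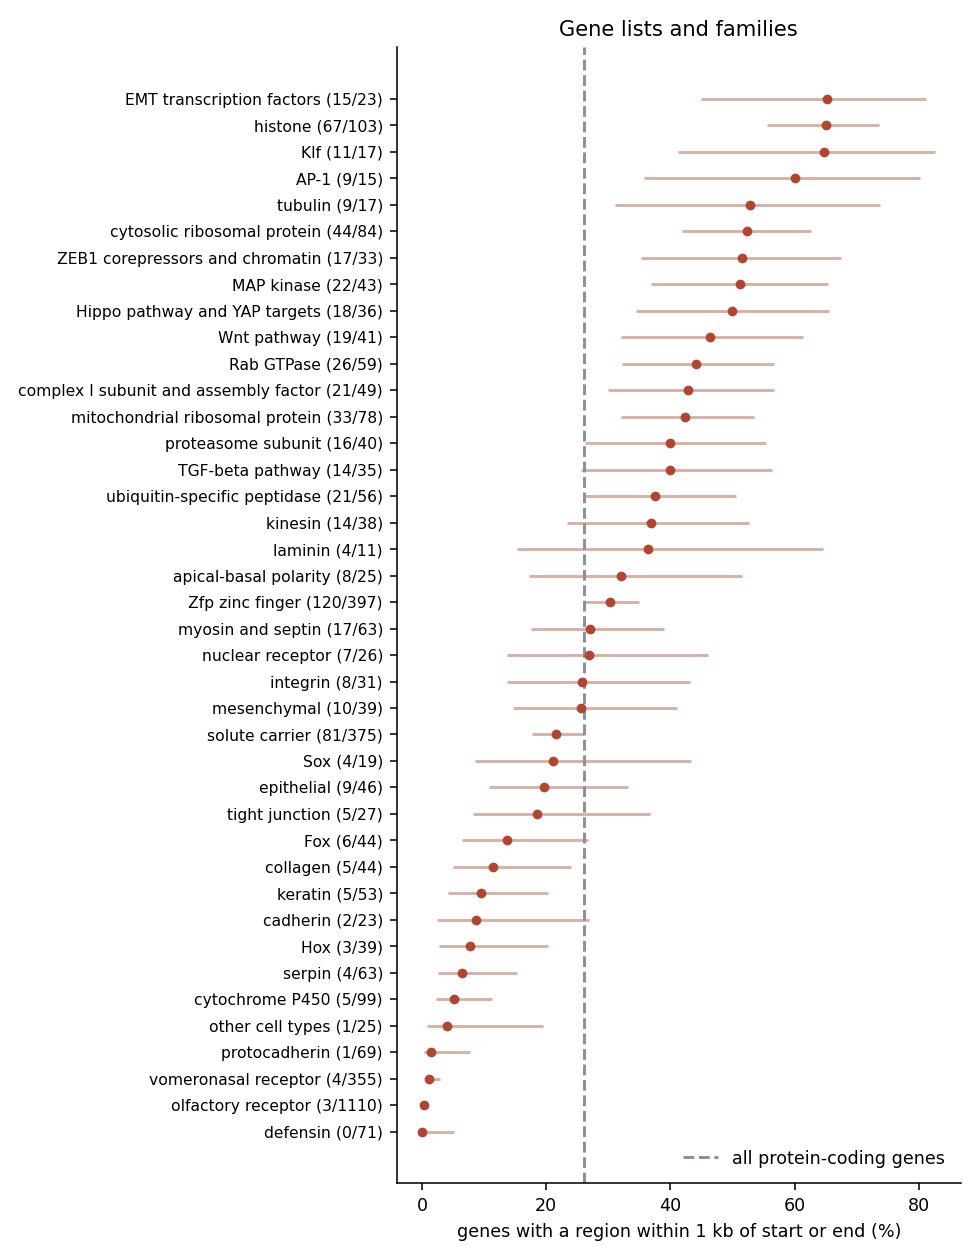
Share of genes in each list or family with an untreated ZEB1 region within 1 kb of their start or end (x axis, %), with 95% Wilson intervals and the number of genes with a region over the number in the list. The dashed line marks 26.0% of all protein-coding genes; EMT transcription factors (65.2%) and histones (65.0%) lie highest of those plotted and defensins lowest (0 of 71).

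The members of highest fold in several of these families had it at a boundary. H2ac15 and H2bc15 shared a region of 20.5-fold with 112 and 166 reads. Rpl41 had 19.6-fold with 35 and 79 reads. Rab40c, a substrate receptor of a Cullin ubiquitin ligase, had 29.5-fold with 101 and 169 reads, and Map3k14, the NF-kappaB-inducing kinase, 25.9-fold with 60 and 108 reads. Ndufs8, a complex I subunit, had 19.2-fold with 45 and 85 reads. Other leading members had theirs away from their own boundaries, as did Klf3 (12.8-fold, 34315 bp), Tubb2b (17.6-fold, 14202 bp) and Mrps23 (17.9-fold, 13104 bp).

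EMT transcription factors had an assigned region at 19 of 23 genes (82.6%), against 37.0% of all coding genes. At a boundary 15 (65.2%) had one, against 26.0% of all coding genes. The highest fold was 21.4 inside Twist2 (62 and 113 reads), and the median of each gene's highest fold was 11.9. Tcf3, which encodes the E-box binding factor E47, had a boundary region of 18.8-fold with 45 and 95 reads. Runx1 had 11 regions and Runx2 had 10, of up to 11.9-fold and 11-fold. Id1 (13.4-fold), Id2 (6.82-fold) and Id3 (15.2-fold), inhibitors of E-box binding factors, each had a boundary region. No region was listed at Twist1, Foxc2, Gsc or Klf8.

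Snai1, a zinc-finger factor that shares E-box targets with ZEB1, had 6 regions. The 2 boundary regions were the promoter region printed in part above, with 10 and 16 reads, and one of 15.3-fold just past the gene (chr2:167543233-167543788) with 33 and 64 reads. The others lay 7.72, 10.5, 27.5 and 32.2 kb away with 6.82-fold, 8.91-fold, 6.69-fold and 9.94-fold. Both libraries had most reads at the region just past the gene, but the region 27.5 kb away was close, with 28 and 63.

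Zeb1 itself had 2 regions, and Zeb2 had 3 of up to 10.4-fold. The boundary region of Zeb1 was 57 bp wide, with 5.35-fold but 0 and 2 reads in replicates 1 and 2. The other, inside the gene, had 10.7-fold with 29 and 62 reads. Snai2 (7.03-fold, 14 and 19 reads), Snai3 (12.8-fold, 54 and 91 reads) and Foxc1 (10.3-fold, 25 and 37 reads) had 1 region each, at a boundary. Tcf4 had 5 regions of up to 15.3-fold, Tcf12 6 of up to 8.78-fold, Sox4 4 of up to 13.0-fold, Sox9 4 of up to 11.1-fold, Prrx1 3 of up to 12.1-fold and Foxq1 2 of up to 9.82-fold.

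**Figure D5:**
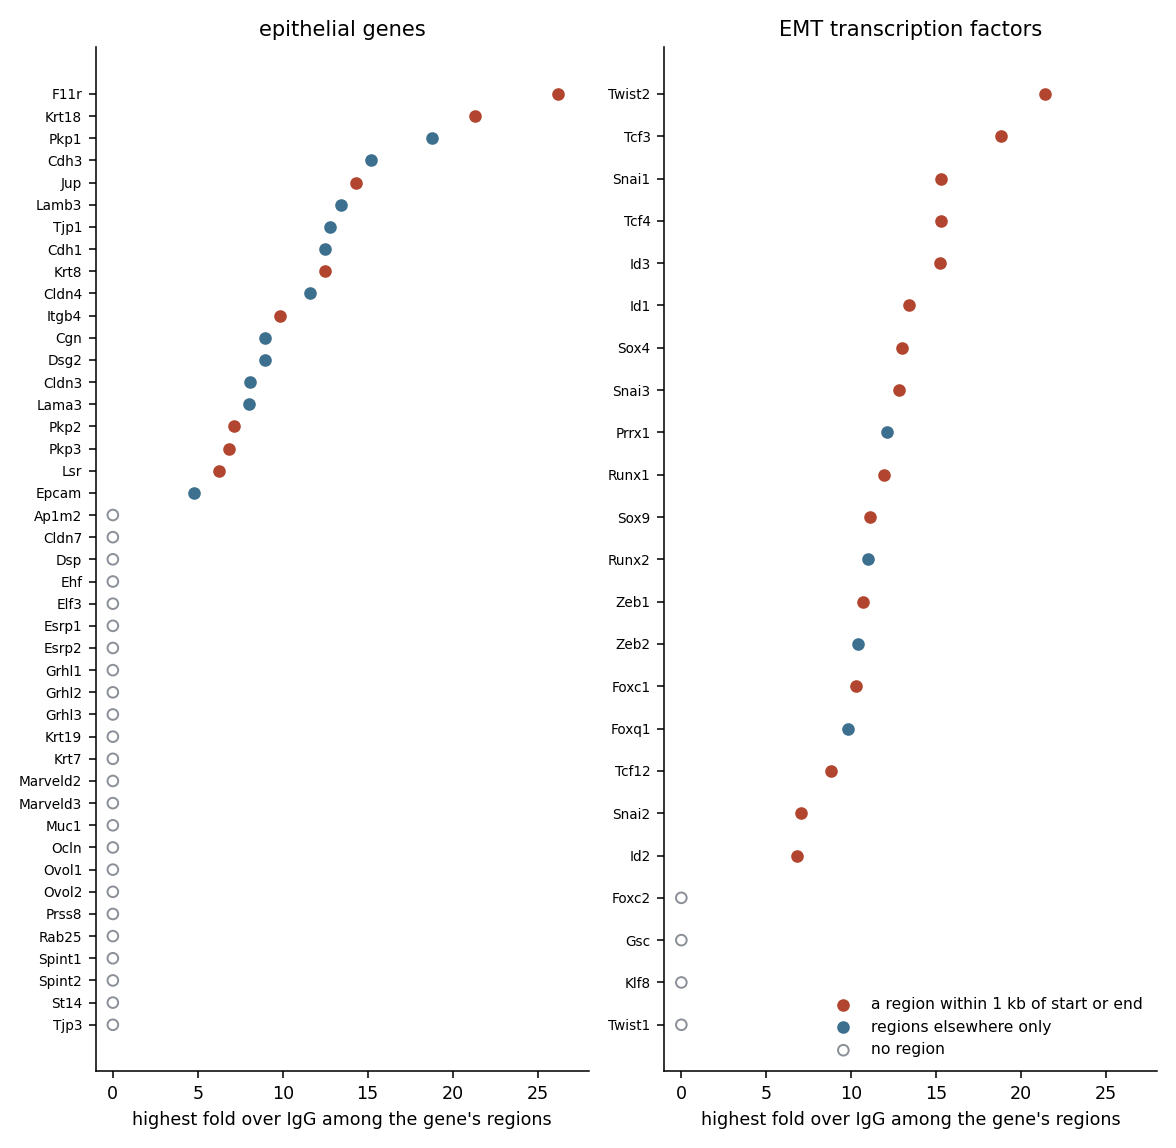
Highest fold over IgG among the untreated ZEB1 regions of each gene (x axis) for 43 of the 46 epithelial genes (left) and 23 EMT transcription factors (right); red points have a region within 1 kb of the gene's start or end, blue points have regions elsewhere only, and open circles at 0 have no region. F11r (26.2) leads the left panel, where 24 genes shown have no region, and Twist2 (21.4) the right, where 4 have none.

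Epithelial genes had regions about as often as coding genes at large. Of 46, 9 (19.6%) had one at a boundary, 16 (34.8%) in the body or within 1 kb and 19 (41.3%) by assignment, against 26.0%, 36.8% and 37.0% of all coding genes. By any of these counts 21 had a region and 25 did not. No region was listed at Esrp1 and Esrp2, which direct epithelial splicing, at the epithelial transcription factor genes Grhl1, Grhl2, Grhl3, Ovol1, Ovol2, Elf3 and Ehf, or at Spint1, Spint2, St14, Prss8, Rab25, Krt7, Krt19, Cldn7, Dsp, Ocln, Marveld2, Marveld3, Tjp3, Muc1 and Ap1m2. The 5 miR-200 genes, Mir200a, Mir200b, Mir429, Mir200c and Mir141, had no region in the body, within 1 kb or assigned within 50 kb. Of all microRNA genes 5.54% had a region within 1 kb, so 0 of 5 is no result about the family.

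The neighbouring keratin genes Krt8 and Krt18, partners in the filaments of simple epithelia, held 11 regions between them. Over Krt8 the boundary region printed in part above shared its row of the count table (77 and 110 reads) with a region of 11.7-fold 1.1 kb away. Between the 2 genes lay regions of 16.9-fold (83 and 109 reads) and 21.3-fold (48 and 104 reads, chr15:102017908-102018360), 11.5 and 10.1 kb from Krt18. The Krt18 promoter region itself was 91 bp wide with 5.36-fold and 9 and 11 reads. By fold these 2 regions were higher than both promoter regions.

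Cdh1, which encodes E-cadherin and is the best known target of ZEB1, had 3 regions and none at a boundary. The strongest (chr8:106619469-106619925) lay inside the gene, 16347 bp from its nearest boundary, with 12.5-fold and 26 and 62 reads. A second inside the gene had 5.2-fold with 9 and 22 reads, and the other, 14.4 kb outside it, had 3.41-fold with 8 and 14 reads. Epcam had 1 region of 4.8-fold, 26079 bp from the gene, with 15 and 26 reads.

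For the 21 epithelial genes with regions, the strongest lay at a boundary in 3, inside a gene in 9 and outside genes in 9. Krt8, Krt18, Cdh1 and Epcam are among them. Over the whole list 27.2%, 36.1% and 36.7% of regions fell in these classes, so this count is no result about the genes. F11r, the junctional adhesion molecule A gene, had 26.2-fold at a site 6191 bp away (85 and 158 reads) beside the promoter region printed in part above (17 and 26 reads). The desmosomal plaque genes Pkp1 and Jup had 18.8-fold and 14.3-fold, with 78 and 155 reads at Pkp1 and 35 and 72 at Jup. Cdh3, the P-cadherin gene, had 15.2-fold inside the gene with 42 and 57 reads. The laminin-332 genes Lamb3 (13.4-fold) and Lama3 (8.04-fold) had regions inside them, as did the tight junction scaffold gene Tjp1 (12.8-fold).

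The other epithelial genes named here had highest folds of 6.25 to 11.6. Cldn4 had 11.6-fold, Itgb4 9.82-fold, Cgn and Dsg2 8.93-fold each, Cldn3 8.1-fold, Pkp2 7.14-fold, Pkp3 6.82-fold and Lsr 6.25-fold. Their strongest regions had 6 to 28 reads in replicate 1 and 13 to 39 in replicate 2.

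Polarity genes had a boundary region at 8 of 25 (32.0%) and a body region at 18 of 25 (72.0%), against 26.0% and 36.8% of all coding genes. The Wilson interval of the boundary share, 17.2 to 51.6, covered the 26.0%, so that share is no result about the genes. The list's median gene length was 57.0 kb, and no count was corrected for length. Dlg2, a very long scaffold gene, had 10 regions of up to 21.4-fold. Pard6b, a subunit of the PAR polarity complex, had the highest boundary fold, 19.8, with 55 and 93 reads. Stk11, the polarity kinase Lkb1, had 17.7-fold with 39 and 68 reads, and Llgl2, a known ZEB1 target in human breast cancer cells, 11.9-fold with 20 and 41 reads, both at a boundary. The other members with a region were Dlg1 (12.5-fold), Pard3b (11.2), Llgl1 (10.4), Dlg5 (9.08), Prkci (8.43), Dlg4 (8.04), Dlg3 (7.94), Mpdz (7.45), Mpp5 (7.14), Pard6a (6.82), Pard3 (5.94), Crb2 (5.36), Patj (5.36), Lin7b (4.97) and Crb1 (3.89). No region was listed at Crb3, Scrib, Pard6g, Prkcz, Lin7a or Lin7c.

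Tight junction genes had a boundary region at 5 of 27 (18.5%), against 26.0% of all coding genes. The Wilson interval of this share, 8.18 to 36.7, covered the 26.0%, so it is no result about the genes. Magi1 had 10 regions of up to 12.5-fold, and Magi3 a boundary region of 11.7-fold with 46 and 68 reads. Cldn12 (6.98-fold) was the claudin of the list with a boundary region. Cldn1 (5.11-fold), Cldn2 (4.47-fold) and Cldn5 (6.25-fold) had regions outside the gene, and so did Cgnl1 (10.5-fold). Magi2 (8.04-fold) and Jam2 (5.19-fold) had regions inside the gene, whereas Cldn6, Cldn8, Cldn9, Cldn11, Cldn15, Cldn23 and Jam3 had none.

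Mesenchymal genes had a boundary region at 10 of 39 (25.6%), near the background, and an assigned region at 26 of 39 (66.7%), against 37.0% of all coding genes. Cd44 carried 11 regions of 4.47-fold to 33.2-fold. The highest (chr2:102943858-102944591), 42.6 kb from the gene, had 96 and 219 reads, while the boundary region had 8.92-fold with 19 and 40 reads. Tgfbi, a TGF-beta induced matrix protein gene, had 25-fold at 25240 bp with 60 and 133 reads. Vim, the vimentin gene, had 3 regions, led by the promoter region of 11.6-fold with 41 and 78 reads.

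Genes of the AP-1 complex, whose factors ZEB1 is known to join at active genes in human breast cancer cells, had a boundary region at 9 of 15, against 26.0% of all coding genes. Jun had 8 regions, and the one over its start (chr4:95051912-95052661) had 23.0-fold with 60 and 88 reads, against 3.89-fold to 6.82-fold at the others. Fosb had 5 regions, with 17.0-fold at its start (28 and 35 reads). Fos had 5 of up to 17.0-fold and Fosl2 5 of up to 11.1-fold.

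Hippo pathway and YAP target genes had a boundary region at 18 of 36, against the same 26.0%. Myof had 13 regions of up to 22.3-fold, Tead4, a DNA-binding partner of YAP, 5 of up to 21.4-fold, and Nf2, an upstream tumour suppressor, a boundary region of 16.7-fold with 39 and 58 reads. Wwtr1, which encodes TAZ, had 6 of up to 15.1-fold.

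TGF-beta pathway genes had a boundary region at 14 of 35 (40.0%), against 26.0% of all coding genes. The Wilson interval, 25.6 to 56.4, just covered the 26.0%, so this share is no result about the pathway. Smad3 had 15 regions in all, of up to 17.0-fold with 69 and 96 reads, Tgfbr2, the type II receptor gene, 6 of up to 17.0-fold, and Smad7, an inhibitor of the pathway, 6 of up to 14.9-fold. Wnt pathway genes had one at 19 of 41 (46.3%), against the same 26.0%, led by Gsk3b, a kinase that marks beta-catenin for breakdown, with 16.1-fold and 67 and 120 reads.

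Corepressor and chromatin genes, which include partners of ZEB1, had a boundary region at 17 of 33 (51.5%), against 26.0% of all coding genes. Sin3a, a scaffold of histone deacetylase complexes, had 3 regions, the highest inside the gene at 29.0-fold with 92 and 168 reads. Brpf1 had a boundary region of 22.0-fold with 64 and 118 reads.

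Of 25 markers of other cell types, 1 (4.0%) had a boundary region and 6 (24.0%) an assigned one, against 26.0% and 37.0% of all coding genes. Among those that define a lineage, T and B cell genes had a boundary region at 0 of 8, endothelial genes at 0 of 4 and hepatocyte genes at 0 of 4. Neuronal genes had one at 1 of 4 (Map2). The epithelial markers had one at 2 of 8 (Krt8 and Krt18) and the mesenchymal markers at 4 of 7 (Cdh2, Fn1, S100a4 and Vim). The Cdh2 region had 7 and 7 reads. Over the full lists the boundary counts were 9 of 46 epithelial and 10 of 39 mesenchymal genes. An assigned region was found at 6 of 8 epithelial and 6 of 7 mesenchymal markers. For T and B cell, endothelial, neuronal and hepatocyte markers these counts were 1 of 8, 3 of 4, 2 of 4 and 0 of 4. Binding does not measure RNA, so the labelled cell type was not tested by these counts.

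Promoter sequence differed between windows with and without a region. Windows from 250 bases before to 50 after the start site were available for 17469 coding genes, none on chromosome 18, and 5011 of 21238 windows (23.6%) overlapped an untreated region. Their median GC content was 63.0%, against 54.0% in windows without a region, and their median number of CpG pairs was 24, against 8. A GC box, GGGCGG or its reverse complement CCGCCC, was in 74.4% of windows with a region, in 37.5% of those without and in 46.2% of all windows.

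The E-box letters linked to ZEB1 were less frequent in windows with a region. CAGGTG, read on either strand, was in 751 of 5011 windows with a region (15.0%, 95% Wilson interval 14.0 to 16.0), in 21.2% of windows without one (20.6 to 21.8) and in 19.7% of all windows. CAGGTA, also searched on both strands and sharing 5 of its 6 letters with the first motif, was in 7.02% of windows with a region, 12.2% of those without and 10.9% of all. Windows are not replicates, so these differences carry no test.

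For CAGGTG the order was the same within each band of GC content. In windows under 50% GC, CAGGTG on either strand was in 11.1% with a region and 16.8% without. In those of 50 to 60% GC the shares were 13.7% and 24.6%, in those of 60 to 70% 15.8% and 24.0%, and above 70% 16.2% and 20.4%. The 95% Wilson intervals met in the last band, at 14.0 to 18.6 with a region and 18.5 to 22.4 without, and were apart in the others. For CAGGTA the shares with and without a region were 7.74% and 15.5% under 50% GC, 8.7% and 12.9% at 50 to 60%, 6.65% and 8.34% at 60 to 70% and 5.19% and 5.62% above 70%, with overlapping intervals in the last 2 bands. Stronger regions did not hold the letters more often, since over 4 groups from the lowest to the highest fold the share was 16.1%, 14.0%, 16.4% and 13.4%. The AP-1 motif TGAGTCA, on either strand, was in 3.81% of windows with a region and 4.92% without, and the TEAD motif GGAATG, likewise, in 10.8% and 14.4%. The windows cover promoters only, and the sequence of the regions further away was not analysed here.

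Within the lists the promoters with a region were few, so their shares can only be set loosely beside the 15.0% of all windows with a region that held CAGGTG on either strand. The lists count genes, whereas the 15.0% counts windows. Of all 17469 coding genes with a window, 4429 had a region in one, and 23.6% of all windows had one. Among epithelial genes 5 of 26 with a window had a region in it, and 3 of the 5 (F11r, Krt18 and Krt8) held the letters. EMT transcription factors had a region in 9 of 15, with the letters at 2 (Runx1 and Snai1). Polarity genes had a region in 3 of 20, with the letters at Pard6a and Pard6b. Hippo pathway and YAP target genes had a region in 13 of 29, with the letters at 3 (Ankrd1, Lats2 and Wwc1). None of the 14 promoters with a region among corepressor and chromatin genes, the 10 of the TGF-beta pathway or the 4 of mesenchymal genes held them.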

How the data were processed

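CUT&RUN libraries of PB3-Parental cells were sequenced as paired-end reads of 76 bp, per the labels' protocols. Per the submitters' processing notes, the tools included MACS2 2.1.1 and bedtools 2.30.0, Bowtie2 2.2.6 and cutadapt 2.4, featureCounts, deepTools and Picard, on mm10 (GRCm38), with no roles or order. Each region of the authors' deposited list carries a fold (ratio) over IgG, a −log10 q and a score, as the peak caller wrote them, and its peak names point to replicate 1. The deposited count table holds raw read counts per row for 8 ZEB1 libraries and none for IgG, so each fold over IgG is the authors' value. No column of the table lacked a sample.

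Regions were matched to rows by any overlap. Their centres were placed against RefSeq genes of GRCm38.p6: boundary (within 1 kb of a protein-coding gene's start or end), inside or outside. Each region was also given to the nearest coding or microRNA gene within 50 kb. CPM used the table's totals. Replicates were compared by an exact 2-sided binomial test with Benjamini-Hochberg adjustment at 0.05, over rows with a summed count of at least 10, with a script tested on simulated data. Median-of-ratios and TMM factors came from edgeR 4.0.16 in R 4.3.3; other steps used Python 3.11.15 with pandas 2.3.3, NumPy 2.4.6 and SciPy 1.17.1. Shares have 95% Wilson intervals, which cover counting error only.

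Named were the 10 regions highest by fold, by reads, by reads per kb and by width, the 10 genes with most assigned regions, the leading members of each list or family, and all members of the epithelial, EMT factor, polarity, tight junction and miR-200 lists. The members, lists and motifs were chosen with earlier results of these data known. The limit of 100 bp on rows ranked by density and the GC-box, AP-1 and TEAD motifs were added after seeing the data. Alternatives tried were other boundary windows, stricter q, summits, other gene assignments, count filters, scalings and leaving out each replicate. Eribulin libraries were not analysed here, and a few genes that these rules would name are not reported here.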

Additional observations from a re-analysis of the deposited data

How the results depend on the processing

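With a boundary window of 2 kb the shares at a boundary, inside genes and outside genes were 31.6%, 33.2% and 35.2%, with 5 kb 39.2%, 29.0% and 31.9%, and with all annotated genes in place of coding genes 32.0%, 40.5% and 27.5%. A limit of −log10 q of at least 5 or the summit in place of the centre left these shares within their intervals. The share of coding genes with a region was 27.6% when assignment reached 5 kb, 30.8% with the q limit and 38.1% without chromosome X, the last chosen after seeing the data. Genes with 3 or more regions numbered 1394 as reported, 200 within 5 kb and 908 with the q limit. The replicate test called 0 rows under all 4 alternatives run. Of the top 100 rows by reads, 93 were shared without untreated replicate 1 and 84 without untreated replicate 2, and 24 when ranked per kb. The motif share was 15.3% with the summit inside the window and 14.6% with the q limit. The causes of these shifts were not tested. Median counts of 14 and 25 per row limit single regions, and the list's derivation from replicate 1 limits what replicate 1 adds. No paired analysis was possible because no groups were compared by a test.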
